A study of Oryctolagus cuniculus with 2 samples.

Results

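Clusters 9 and 10 of the deposited clustering carry the authors' rod label, yet their nuclei have low values of the authors' rod score. They were selected on these low rod scores together with the label, as the nuclei with the cell type label Rods and the cluster number 9 or 10. They hold 323 nuclei, which is 4.94% of all 6542 nuclei and 7.52% of the 4296 nuclei labelled rods. Cluster 9 has 180 nuclei, 126 of them wild-type and 54 CLRN1 knockout. Cluster 10 has 143 nuclei, 86 of them wild-type and 57 CLRN1 knockout. The nuclei came from retinas of rabbits aged 10 months, either wild-type or with a knockout of CLRN1, the gene of clarin-1, a membrane protein affected in an inherited syndrome of deafness and blindness (Usher syndrome). A punch of 5 mm was taken from the visual streak, a horizontal strip where retinal cells are densely packed. For each genotype, nuclei of 3 animals were pooled and captured as 1 droplet library, and animals were not separated here. Effects of genotype, of the animals in a pool and of the library therefore cannot be told apart. The sources used here do not give how the knockout was made or in which cells it acts. Since each genotype has 1 library, nothing was tested. Intervals are exact Clopper-Pearson or order-statistic intervals at 95% and cover counting error only, because nuclei of 1 library are not replicates.

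Rods are the photoreceptors of dim light and the most numerous neurons in most mammalian retinas. They turn light into a change of membrane voltage through rhodopsin, transducin and a phosphodiesterase, and pass the signal to bipolar cells. Amacrine and horizontal cells are inhibitory interneurons that shape this signal, and Müller glia span the whole retina and support its neurons.

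The wild-type library had 3484 nuclei and 6916018 unique molecular identifiers (UMIs, each counting 1 captured transcript), and the knockout library 3058 nuclei and 8233524 UMIs. The 2 libraries share 5 barcode sequences, and 1 nucleus of clusters 9 and 10 carries a shared one. The gene expression matrix has 15806 rows that carry numbers and no gene names, so no marker gene of rods or of any other cell type could be looked up, and the level of CLRN1 was not checked. The label was therefore examined through the 9 module scores that the authors deposited for each nucleus, each named for a cell type, and through the matrix rows by number. The clusters, the scores and the embedding all come from the same counts. Every difference below between these clusters and others is thus a description and not independent evidence of what the nuclei are.

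The nuclei of both clusters held more UMIs than the main rods. Cluster 9 had a median of 1979 UMIs per nucleus (interval 1775 to 2105, range 560 to 7903) and cluster 10 one of 1478 (interval 1336 to 1688, range 520 to 3825). In clusters 0, 1 and 3, which make up the main body of 3082 rods, it was 798 (interval 787 to 813). Among the 26 clusters, ordered from the highest median, cluster 9 stood at place 18 and cluster 10 at place 22. The rod-labelled cluster 2 had a median of 3968, and the amacrine-labelled cluster 5 had 2958. Knockout nuclei were deeper than wild-type nuclei in both clusters, with medians of 2330.5 against 1776.5 in cluster 9 and 1930 against 1280 in cluster 10. With each nucleus thinned to 500 UMIs, the median number of detected genes was 377.5 for cluster 9, 369 for cluster 10 and 387 for clusters 0, 1 and 3. It was higher in the knockout in each. Cluster 9 had 385 against 374 genes, cluster 10 had 377 against 363, and the main rods had 390 against 384.5. Mitochondrial UMIs made up a median of 0.155% of the UMIs of a nucleus in cluster 9, 0.152% in cluster 10 and 0.107% in the main rods. It exceeded 1% in 21 of 180 nuclei of cluster 9 (11.7%, interval 7.37 to 17.3) and in 11 of 143 of cluster 10 (7.69%, interval 3.90 to 13.3), against 3.13% of cluster 0, 0.570% of cluster 1 and 48.6% of cluster 3.

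The rod score was low in both clusters. Its median was -0.02 in cluster 9 (quartiles -0.34 and 0.41, range -0.87 to 1.75) and 0.15 in cluster 10 (quartiles -0.22 and 0.45, range -0.83 to 1.35). The score was above 0 in 87 of 180 nuclei of cluster 9 and in 86 of 143 of cluster 10. Among nuclei under 1000 UMIs this was 15 of 23 and 22 of 28, against 2204 of 2212 main rods. The 5th percentile of the main rods was 0.50, and 37 nuclei of cluster 9 (20.6%, interval 14.9 to 27.2) and 30 of cluster 10 (21.0%, interval 14.6 to 28.6) lay above it. The same limit was passed by 77.4% of cluster 2 and by 10.2% of all nuclei labelled amacrine. The lower quartile of the main rods, 1.04, was passed by 9 nuclei of cluster 9 and by 6 of cluster 10. Most nuclei of both clusters thus lay below the 5th percentile of the main rods, with a minority inside their range.

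The rod score of these clusters was lower in deeper nuclei, as it was in nuclei labelled amacrine. In cluster 9 the median was 0.51 in the 23 nuclei under 1000 UMIs, 0.17 in the 69 nuclei from 1000 to under 2000 UMIs and -0.19 in the 85 nuclei from 2000 to under 4000 UMIs. In cluster 10 it was 0.35 in 28 nuclei, 0.21 in 75 and -0.22 in 40, in the same bins. The main rods had 1.37, 1.37 and 1.34, and 1.13 in their 20 nuclei with 4000 or more UMIs. Nuclei labelled amacrine had 0.42, 0.06 and -0.23, close to clusters 9 and 10 in each bin. Cluster 2 went the other way, from 0.57 through 0.68 to 0.79. Over nuclei, Pearson's r between the rod score and log2 UMIs was -0.36 in both clusters and -0.45 in the amacrine-labelled cluster 5, given as a description over nuclei that share their libraries. At matched UMIs the median rod score of cluster 9 minus that of the main rods was -1.31, and that of cluster 10 minus the main rods was -1.25. Against cluster 2 these differences were -0.68 and -0.58. Against all amacrine-labelled nuclei they were 0.08 and 0.07, against horizontal-labelled nuclei 0.09 and 0.08, against Müller glia -0.03 and -0.06, and against the rod-labelled cluster 16 -0.06 in both. The low level was thus shared with several labels and with another rod-labelled cluster.

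**Figure D1:**
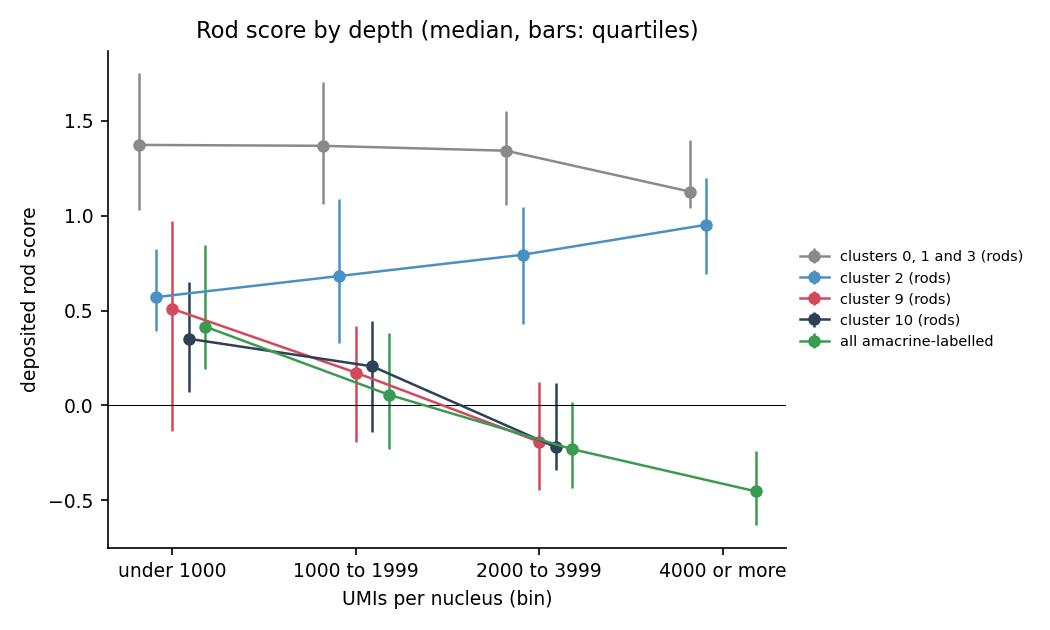
Deposited rod score (vertical axis, score units) by bin of UMIs per nucleus (horizontal axis) in 5 sets of nuclei; points are medians, bars reach from the lower to the upper quartile, and bins under 10 nuclei are left out. Clusters 9 and 10 pass from 0.51 and 0.35 to -0.19 and -0.22, beside the amacrine-labelled nuclei, while clusters 0, 1 and 3 stay between 1.34 and 1.37 below 4000 UMIs.

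None of the other 8 scores took the place of the rod score. Their medians were below 0 in both clusters, with -0.67 and -0.65 for the general photoreceptor score, -0.17 and -0.16 for the cone score, and -0.22 and -0.18 for the bipolar score in clusters 9 and 10. The horizontal, amacrine and Müller glia scores had negative medians as well, but a share of the nuclei was above 0. For the horizontal score this was 54 of 180 nuclei in cluster 9 and 39 of 143 in cluster 10. For the amacrine score it was 68 and 43 nuclei, and for the Müller glia score 78 and 37.

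The shares above 0 differed most plainly from the main rods in deeper nuclei. From 2000 to under 4000 UMIs, 35 of 85 nuclei of cluster 9 (41.2%, interval 30.6 to 52.4) and 15 of 40 of cluster 10 (37.5%, interval 22.7 to 54.2) had a horizontal score above 0, against 4 of 113 main rods (3.54%, interval 0.973 to 8.82). The amacrine score was above 0 in 43 of the 85 (50.6%) and 17 of the 40 (42.5%), against 7.96% of the main rods and 94.7% of cluster 5. The Müller glia score was above 0 in 56.5% of cluster 9, in 32.5% of cluster 10 and in 20.4% of the main rods, and the intervals of cluster 10 (18.6 to 49.1) and of the main rods (13.4 to 29.0) overlap. From 1000 to under 2000 UMIs the horizontal score was above 0 in 20.3% of cluster 9 and 29.3% of cluster 10, against 2.71% of the main rods. Under 1000 UMIs it was above 0 in 4 of 23 nuclei of cluster 9 and in 2 of 28 of cluster 10 (7.14%, interval 0.877 to 23.5), where the interval of cluster 10 overlaps that of the main rods (1.45 to 2.66). Averaged over the bins of UMIs, the medians of the 3 scores differed from those of the main rods by at most 0.11. For cluster 10 the differences were -0.0017 (horizontal), 2.9e-05 (amacrine) and -0.014 (Müller glia), and for cluster 9 they were -0.0062, 0.084 and 0.11. The median was below that of the main rods in 3 of 3 bins for the Müller glia score of cluster 10 and in 2 of 3 bins for each of the others. From 2000 to under 4000 UMIs the amacrine and Müller glia medians of cluster 9 were above 0, as 50.6% and 56.5% of its nuclei were. Those of the main rods were not, with 7.96% and 20.4% of nuclei above 0. In the same bin the horizontal-labelled clusters 19 and 24 had a horizontal score above 0 in 70.7% and 73.7% of nuclei, and an amacrine score above 0 in 68.3% and 63.2%. The gene lists behind the scores are not known here, and a score above 0 is not read as expression of any gene.

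Within each nucleus the highest score varied. In cluster 9 it was the rod score in 58 nuclei, the horizontal score in 39, the Müller glia score in 29, the amacrine score in 18, the general photoreceptor score in 11, the ganglion cell score in 10 and the bipolar score in 1. In cluster 10 it was the rod score in 57 nuclei, the horizontal score in 26, the amacrine score in 19, the Müller glia score in 10, the general photoreceptor score in 8, the ganglion cell score in 5 and the bipolar score in 4. The microglia score ranked highest in 14 nuclei of each cluster, but it was above 0 in 0 nuclei of cluster 9, which allows a share of up to 1.67% (3 nuclei of the total, the limit used here for a count of 0), and in 1 of cluster 10. In 14 nuclei of cluster 9 and 14 of cluster 10 no score was above 0. The same held for 5 of 70 nuclei of cluster 19, 4 of 78 of cluster 16 and 5 of 110 of the amacrine cluster 13. Among the 3082 main rods it held for 1 nucleus, and among all 6542 nuclei for 55. No score passed 0.5 in 127 nuclei of cluster 9 and 104 of cluster 10. A score above 0.5 was found in 29.4% of cluster 9 and 27.3% of cluster 10, against 97.0% of the main rods and 81.9% of all nuclei. Other clusters had like shares, with 18.6% in cluster 19, 26.4% in cluster 13, 31.0% in cluster 24 and 35.9% in cluster 16.

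**Figure D2:**
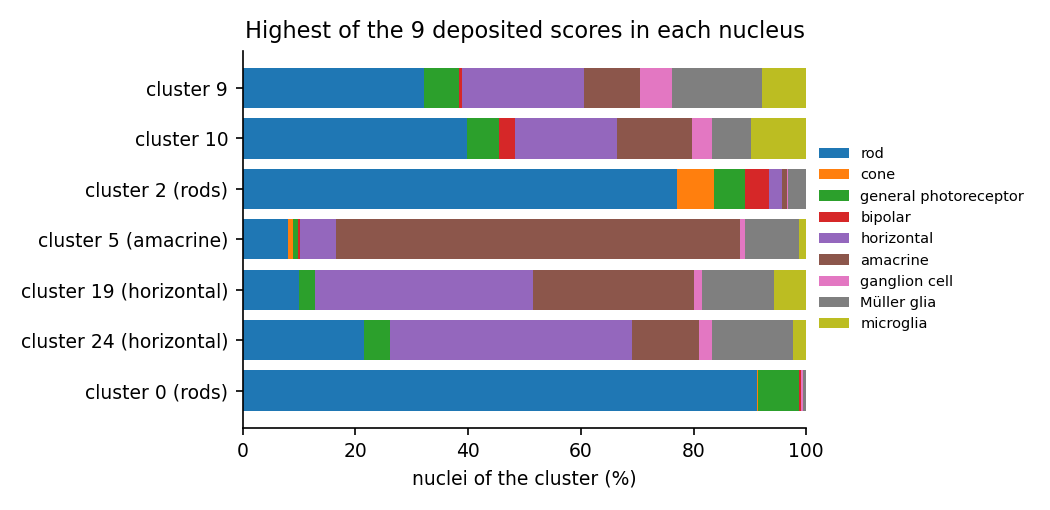
Share of nuclei (horizontal axis, percent of the cluster's nuclei, both libraries together) by which of the 9 deposited scores is the highest, in 7 clusters. In clusters 9 and 10 the rod score leads in 32.2% and 39.9% of nuclei and the rest is divided among 6 other scores and a microglia segment of nuclei whose microglia score is almost always at or below 0.

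Cluster 9 formed a smaller share of the knockout library. It held 3.62% of the wild-type nuclei (126 of 3484, interval 3.02 to 4.29) and 1.77% of the knockout nuclei (54 of 3058, interval 1.33 to 2.30), a log2 ratio of knockout to wild-type of -1.03 (interval -1.52 to -0.56). Cluster 10 held 2.47% (86 nuclei, interval 1.98 to 3.04) and 1.86% (57 nuclei, interval 1.41 to 2.41), a log2 ratio of -0.41 (interval -0.91 to 0.09), so that its shares overlap in counting error. Among nuclei with 2000 or more UMIs the ratio of cluster 10 turned to 0.33 (interval -0.64 to 1.34), from 16 of 1115 and 24 of 1332 nuclei, and that of cluster 9 stayed below 0 at -0.65. Depth differed between the libraries, and its part in the shares was not tested beyond these limits. Within cluster 10 the rod score was the highest in 52.3% of wild-type nuclei (45 of 86, interval 41.3 to 63.2) and in 21.1% of knockout nuclei (12 of 57, interval 11.4 to 33.9). The median rod score of cluster 10 was 0.21 in the wild-type and -0.14 in the knockout. Within bins of UMIs this difference of -0.35 shrank to -0.08. In cluster 9 the medians were 0.01 and -0.13, with intervals that overlap.

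In the deposited embedding, a map that places nuclei of like expression near each other, each cluster was 1 compact island away from the main rods. Of the 15 nearest nuclei, on average 99.2% belonged to the same cluster for cluster 9 and 97.9% for cluster 10. Joining nuclei up to 1 unit apart gave an island of 179 of the 180 nuclei of cluster 9 and of 142 of the 143 nuclei of cluster 10. The centre nearest to that of cluster 9 was the Müller glia cluster 8, at 3.80 units, and the one nearest to that of cluster 10 was the amacrine cluster 5, at 4.53 units. The centres of 9 and 10 lay 4.98 units apart. Which nuclei of other clusters came closest depended on how many were counted. Cluster 2 made up 48.7% of the 15 nearest foreign nuclei of cluster 9 and 92.7% of those of cluster 10, but these were only 11 and 14 different nuclei of the 813 in cluster 2. With 50 foreign neighbours its share was 17.6% and 28.4%, and the leading clusters were cluster 8 for cluster 9 (50.5%) and cluster 9 for cluster 10 (38.1%). Among nuclei of the same UMI bin, with 15 neighbours, cluster 2 gave 26.8% and 7.09%. Cluster 8 then led for cluster 9 (36.7%), and cluster 10 gave 23.5%. For cluster 10 the leading clusters were cluster 9 (57.9%) and the amacrine cluster 5 (35.0%).

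**Figure D3:**
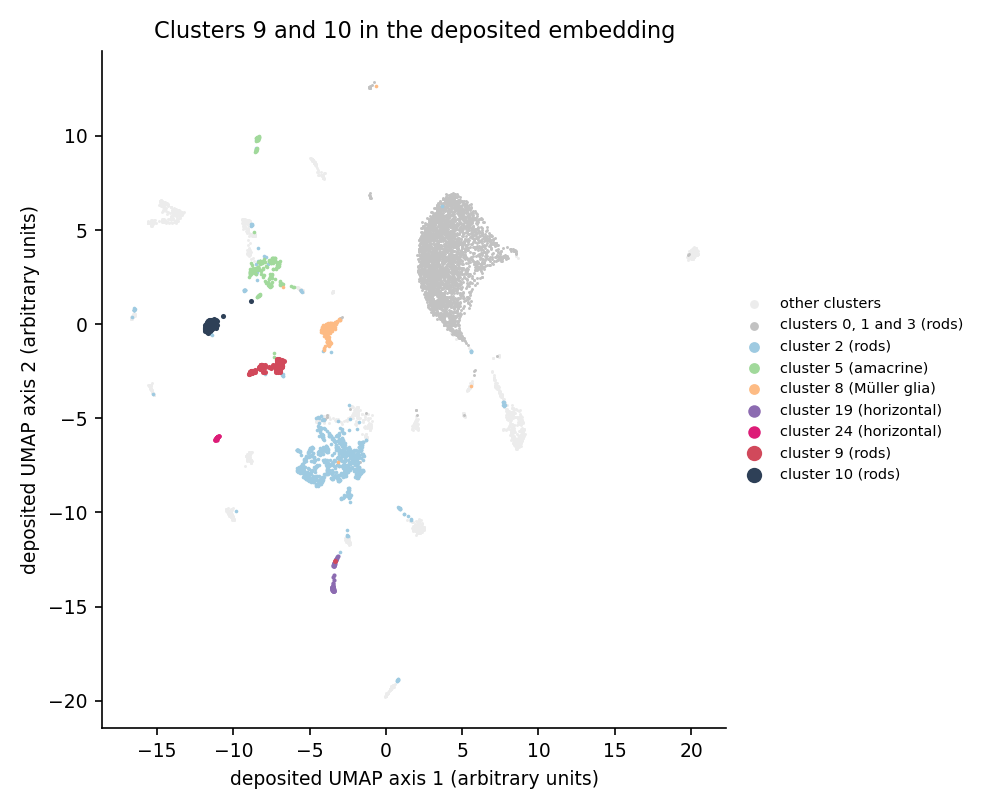
The deposited embedding of all 6542 nuclei (both axes in arbitrary units), with clusters 9 and 10 and the clusters named beside them in colour and the remaining clusters in pale grey. Clusters 9 and 10 form separate islands near clusters 8 and 5, with a few nuclei of cluster 2 at their edges, and lie apart from the large body of clusters 0, 1 and 3.

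The summed counts of clusters 9 and 10 resembled each other and several interneuron clusters more than the main rods, at equal depth. Columns of the matrix were tied to nuclei by position after their totals and their numbers of detected genes were found equal at all 6542 positions; 319 of the 323 nuclei have a combination of the 2 that no other nucleus has. With each nucleus thinned to 500 UMIs and each cluster brought to 20000 UMIs, Pearson's r of log2(CPM + 10) over matrix rows was highest for cluster 9 with the horizontal-labelled cluster 24 (0.673), followed by the amacrine cluster 21 (0.664), the horizontal-labelled cluster 19 (0.663), cluster 10 (0.661) and the amacrine cluster 5 (0.653). For cluster 10 the order was cluster 9 (0.661), 24 (0.660), 19 (0.647), 21 (0.628) and 5 (0.627). Neighbours in these orders differ by little, and no replicate gives their error. The best of the main rod clusters was cluster 3, with 0.583 and 0.564, at place 21 of 25 for both. Cluster 2 was at place 10 for cluster 9 and place 7 for cluster 10.

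For both clusters, 18 of the 19 clusters not labelled rods were more alike than any of clusters 0, 1 and 3. This count was 17 or 18 with ranks in place of values, with pseudocounts of 1 or 100 CPM, with the counts as deposited, and without the 10 rows with most UMIs. The order of clusters changed with the counts as deposited. Cluster 24 was then at place 9 for cluster 9 (0.881) and at place 6 for cluster 10 (0.869). Outside the pair cluster 5 led, with 0.910 and 0.887, and cluster 2 was at places 4 and 5. The count of clusters was 8 for both when the thinned clusters were left at unequal totals. In that setting cluster 2 was the most alike to cluster 9 (0.855) and second to cluster 9 for cluster 10 (0.825). Cluster 2 has the most UMIs of all clusters, 4458976 in the deposited counts, and cluster 24 has 83684. For comparison, in the equal-total setting clusters 0 and 1 were most alike to each other (0.740), and cluster 9 was the most alike to clusters 24 (0.673) and 19 (0.663) from their side as well.

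**Figure D4:**
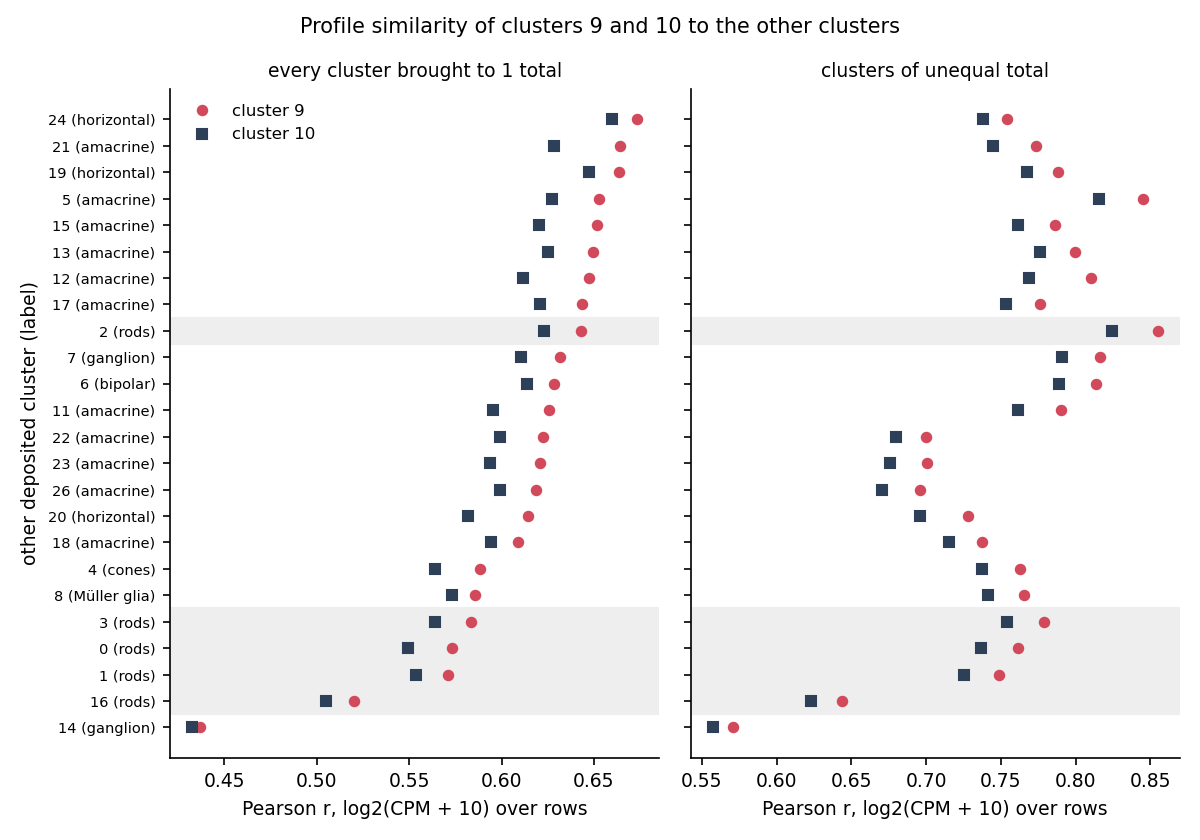
Pearson's r of log2(CPM + 10) over matrix rows (horizontal axes, no unit) between cluster 9 (circles) or cluster 10 (squares) and each deposited cluster other than these (vertical axis; grey bands mark rod-labelled clusters), with every cluster brought to 20000 UMIs (left) or left at its own total (right); the 2 horizontal axes have different ranges. The pair of clusters 9 and 10 with each other (0.661 left, 0.839 right) is not drawn. Among the clusters drawn, cluster 24 is highest on the left, where clusters 3, 0 and 1 are near the bottom, and cluster 2 is highest on the right.

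Counts of rows that differ put cluster 24 nearest to cluster 9, by a small margin over cluster 10, and cluster 9 nearest to cluster 10. The correlation of the counts as deposited had put cluster 24 at place 9 for cluster 9. With the deposited counts brought to 83684 UMIs per cluster, and over rows with at least 20 UMIs in the 2 clusters compared, 5.55% of rows differed 4-fold or more between clusters 9 and 24 (101 of 1821), 5.86% between clusters 9 and 10 (104 of 1774), 6.20% between clusters 9 and 19 and 7.72% between clusters 9 and 5. The share was 13.8% against cluster 2, 21.9% against cluster 3, 24.5% against cluster 0 (476 of 1944, of which 276 were higher in cluster 9) and 25.7% against cluster 1. Cluster 10 differed in 6.20% of rows from cluster 24, 8.23% from cluster 19, 10.5% from cluster 5, 17.9% from cluster 2, 24.7% from cluster 3, 26.1% from cluster 0 and 27.3% from cluster 1. There is no replicate behind these counts, and they are shares past a size and not calls of a test.

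Hardly any row set either cluster apart from all others. Of 3406 rows with enough UMIs, 1 row (0.0294%) was at least 4-fold higher in cluster 9 than in every other cluster. In cluster 10 it was 4 of 2278 rows (0.176%). The Müller glia cluster 8 had 52 such rows of 4038 (1.29%), and the horizontal-labelled cluster 20 had 25 of 2497 (1.00%). The rod-labelled cluster 16 had 101 of 2328 (4.34%). Clusters 0, 1, 2, 5, 15 and 24 had 0, with between 798 (cluster 24) and 9229 (cluster 2) rows compared. The leading row of cluster 10, row 7453, was seen at 500 UMIs in 15 of its 143 nuclei (10.5%, interval 5.99 to 16.7) and in 4 of the 6218 nuclei outside clusters 9 and 10. The row of cluster 9, row 14, was seen in 7 of 180 nuclei (3.89%) and in 2 of the same 6218. Both rows were picked for their excess in these same nuclei. The counts of nuclei therefore describe that choice and are no separate support for it. A different row, the highest in 22 of the 26 clusters, took 6.62% of all UMIs in cluster 9 and 7.44% in cluster 10. It took 1.61% in the main rods, 3.61% in the rod-labelled cluster 2 and 10.8% in the rod-labelled cluster 16. Over the clusters not labelled rods its median was 6.44%, with a range of 0.511% to 12.7%.

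Nucleus by nucleus, none was nearest to the main rods. Each nucleus was thinned to 500 UMIs and given to the other cluster whose summed profile made its counts most likely. Of cluster 9, 69 nuclei went to cluster 10, 47 to cluster 5, 32 to cluster 24, 18 to cluster 2, 12 to cluster 19 and 2 to cluster 21. Of cluster 10, 91 went to cluster 9, 24 to cluster 24, 10 to cluster 2, 10 to cluster 19, 7 to cluster 5 and 1 to cluster 13. The number nearest to clusters 0, 1 or 3 was 0 of 180 and 0 of 143, which by the same limit of 3 nuclei allows shares of up to 1.67% and 2.10%, and it was also 0 with 1000 UMIs, with profiles brought to 1 total and with clusters 9 and 10 both left out. The bipolar cluster 6 likewise took 0 nuclei in each of these settings. With clusters 9 and 10 both left out, 85 nuclei of each went to cluster 24, and 50 of cluster 9 and 25 of cluster 10 to cluster 5. Cluster 2 then took 25 and 10. The best of the 19 profiles not labelled rods was more likely than the best of clusters 0, 1 and 3 in 177 of 180 nuclei and in 143 of 143. That comparison favours the side with more profiles. Outside clusters 9 and 10 themselves, cluster 2 was the only rod-labelled cluster that any of these nuclei was nearest to, in all 4 settings run.

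Rows that mark rods elsewhere were low in both clusters. For each cell type the 50 rows with the highest ratio to every other type were taken from the counts of other nuclei, leaving out clusters 9 and 10 and the 6 clusters 12, 14, 15, 16, 19 and 24, whose labels or quality were in doubt. The 50 rod rows held 0.651% of UMIs in cluster 9 (interval 0.600 to 0.706) and 0.621% in cluster 10 (interval 0.565 to 0.681), against 3.61% in the main rods and 2.09% in cluster 2. That is 5.55-fold and 5.82-fold below the main rods. In the 14 clusters of other types used, the share ran from 0.190% to 1.54% with a median of 0.437%, and 3 of them were above clusters 9 and 10, namely the cones, the bipolar cells and the Müller glia. These clusters took part in the choice of rows, which favours low values in them. Per nucleus at 500 UMIs, the median was 2 UMIs in rod rows in both clusters (quartiles 1 and 4), 17 in the main rods and 10 in cluster 2. At least 10 such UMIs, the 5th percentile of the main rods, were found in 9 of 180 nuclei of cluster 9, in 7 of 143 of cluster 10, in 1 of 247 of cluster 5, in 6 of 78 of the rod-labelled cluster 16 and in 455 of 813 of cluster 2. Cluster 16 had a median rod score of 0.04 and a median of 4 UMIs in rod rows.

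The 50 amacrine rows lay below their level in the amacrine clusters used and near that of clusters 12 and 24, which were also left out of the choice. They held 1.09% of UMIs in cluster 9 (interval 1.02 to 1.16) and 0.927% in cluster 10 (interval 0.858 to 1.00), against 2.61% in the amacrine clusters used. The 9 clusters of other types used ran from 0.0744% to 0.533%, but the rows were chosen to be low in them, so standing above them is no finding. Clusters 12, 24 and 19, which like clusters 9 and 10 were left out when the rows were chosen, had 1.01%, 1.17% and 1.61%. With the 20 leading rows the amacrine share was 0.470% in cluster 9 and 0.239% in cluster 10, which is 2.94-fold and 5.77-fold below the amacrine clusters, against 2.40-fold and 2.81-fold with 50 rows. The Müller glia rows held 0.701% of UMIs in cluster 9 and 0.766% in cluster 10, where cluster 8 had 6.93% and the clusters of other types used had at most 0.744%. Clusters 16 and 24, not used for choosing the rows, had 1.60% and 1.12%. The remaining clusters left out of the choice were below both clusters 9 and 10. Cluster 10 was thus at place 4 and cluster 9 at place 6 of all 26 clusters for the Müller glia rows. The bipolar rows held 2.55% and 3.03%, against 8.73% in cluster 6 and from 0.921% to 2.98% in other types, with a median of 2.27%, so that cluster 10 was above all 17 of these clusters and cluster 9 above all but 3. Among all 26 clusters, cluster 10 was at place 2 and cluster 9 at place 9 for these rows. For the Müller glia, bipolar and cone rows too, the clusters of other types used took part in the choice. This favours low values in them, so standing above them is no finding. With 20 bipolar rows 2 of the 17 were above cluster 10 and 8 above cluster 9. The cone rows held 0.663% and 0.669%, against 6.84% in the cones and a median of 0.761% in other types. With 20 rows in place of 50, the share in clusters 9 and 10 was 51.8-fold and 19.3-fold below cluster 8 for the Müller glia rows (9.89-fold and 9.04-fold with 50), 5.51-fold and 3.96-fold below cluster 6 for the bipolar rows (3.42-fold and 2.88-fold), and 18.6-fold and 16.8-fold below the cones for the cone rows (10.3-fold and 10.2-fold). The 50 horizontal rows are not described, because only 58 rows had enough UMIs and the last of the 50 was not higher in horizontal cells. The last of the 20 leading horizontal rows was 2.47-fold higher there. These 20 rows held 0.890% of UMIs in cluster 9 and 0.715% in cluster 10, against 8.02% in the horizontal cells used. The 17 clusters of other types used had a median of 0.862%. Of these 17, 7 were above cluster 9 and 9 above cluster 10.

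**Figure D5:**
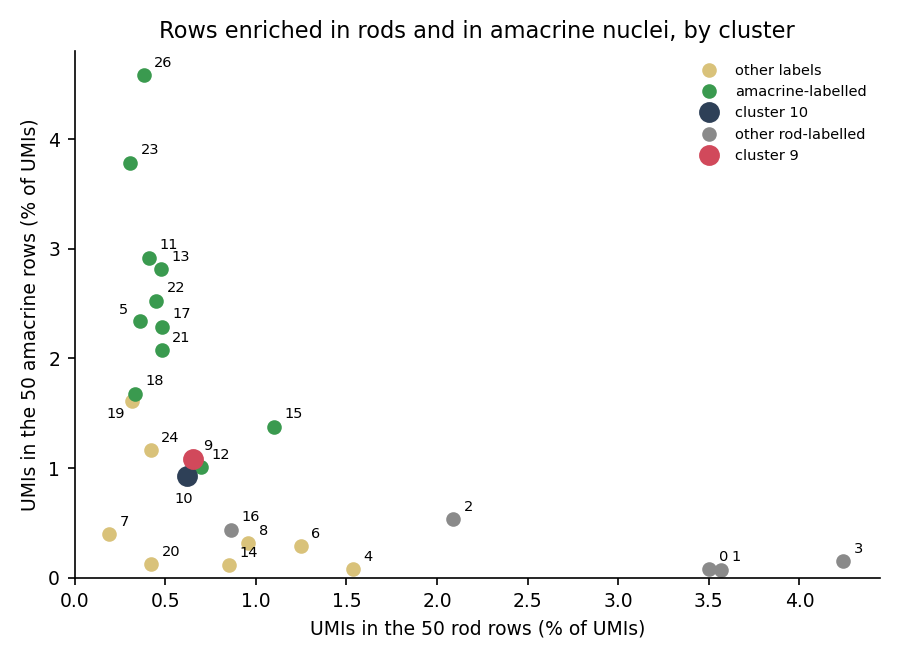
Percent of each cluster's UMIs in the 50 rod rows (horizontal axis) and in the 50 amacrine rows (vertical axis); each point is 1 deposited cluster with its number, coloured by the deposited label. Clusters 9 and 10 sit at 0.651% and 0.621% of rod rows and 1.09% and 0.927% of amacrine rows, beside cluster 12, while clusters 0, 1 and 3 lie at the far right.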

How the data were processed

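Single-nucleus RNA-seq of pooled retinal nuclei was analysed from the table of nuclei and the raw matrix that the authors deposited. Per the submitters' processing notes, the rabbit build was OryCun2.0 and the tools were DESeq2 1.38.0, Seurat 4.3.0 and Cell Ranger 7.0, with roles not given. The deposited UMI counts are whole numbers per row and nucleus, the deposited mitochondrial value is a percent of UMIs, and each deposited module score has no gene list in the sources used here. Cluster numbers, labels and embedding coordinates were taken as the authors gave them. The sources used here give no filters and no treatment of doublets or free RNA, and no doublet caller was run. Matrix columns were tied to nuclei by position after the totals were checked. They were divided by library only for the number of detected genes in thinned nuclei. The other results from the matrix pool both libraries.

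Scores were compared as medians within bins divided at 1000, 2000 and 4000 UMIs, with at least 10 nuclei per side, weighted by the smaller number. Thinning used seed 20, and likelihoods used profiles plus 0.5 UMI. In 3082 main rods, 1 nucleus of 499 UMIs was left out of thinning. The profile and row comparisons were tried on simulated nuclei drawn from a known cluster, itself among the choices, and on rows changed by a known fold. The setting used here, where a nucleus's own cluster is left out, was not simulated. Members, lists and cell groupings were chosen with earlier results of these data known. Genes to be named would have been the 10 highest and 10 lowest by ratio plus cell type markers; as rows carry no names, none was named, and the 2 row numbers given were chosen after their values were seen. Row and score limits (4-fold, 0.25, 0.5, share above 0) were also chosen after seeing the data. Computations ran in SciPy 1.17.1, numpy 2.4.6 and pandas 2.3.3 under Python 3.11.15, with figures from matplotlib 3.10.9.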

Additional observations from a re-analysis of the deposited data

Results flagged for a closer look

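The median rod score was lower in the knockout than in the wild-type library in clusters 9 and 10, with differences of -0.14 and -0.35, where clusters 0, 1 and 3 moved the opposite way, from 1.29 to 1.46 (0.17 higher). With 1 library per genotype this difference between clusters was not tested. Within bins of UMIs the values were -0.05 in cluster 9, where 1 of 2 bins was lower, -0.08 in cluster 10, where 2 of 2 were lower, and 0.16 in clusters 0, 1 and 3. All amacrine-labelled nuclei had -0.16, or -0.07 within bins. Knockout nuclei had more UMIs in each of these sets, and the part of depth beyond the bins was not tested.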

How the results depend on the processing

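Of 50 alternative values, 25 kept the direction and stayed near the main value, 24 moved and 1 turned. Alternatives chosen after seeing the data were nuclei with 2000 or more UMIs, shares without clusters 2 and 16, cluster 2 as the reference, each library for detected genes, neighbours in the same UMI bin, clusters not brought to 1 total, and profiles at 1 total or without clusters 9 and 10. The log2 share ratio of cluster 10 turned from -0.41 to 0.33 at 2000 or more UMIs; cluster 9 stayed between -1.10 and -0.65. The matched rod score difference from clusters 0, 1 and 3 was -1.14 in the wild-type and -1.50 in the knockout library for cluster 9, and -1.06 and -1.47 for cluster 10; against cluster 2 it was -0.68 and -0.58. Detected genes at 500 UMIs were 374 and 385 (cluster 9) and 363 and 377 (cluster 10) in the 2 libraries. The share of foreign neighbours in cluster 2 was 48.7% for cluster 9, and 67.0%, 17.6% and 26.8% with 5 neighbours, 50 neighbours and the same UMI bin. For cluster 10 it was 92.7%, and 99.3%, 28.4% and 7.09%. The count of clusters more alike than the main rods fell from 18 to 8 for both with thinned counts left at unequal totals. The share of nuclei nearest to a cluster not labelled rods was 51.7% for cluster 9 and 29.4% for cluster 10, and 86.1% and 93.0% without clusters 9 and 10 among the profiles, which removes a rod-labelled choice, and 67.8% and 61.5% with profiles at 1 total. The rod row fold was 7.84 and 9.57 with 20 rows, and the amacrine row fold 2.94 and 5.77. Except where the construction shows it, the cause was not tested. No paired analysis was possible because each genotype has 1 library, and no replicate could be left out. Bins of under 30 nuclei limit the precision of their medians.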
